A study of Rattus norvegicus with 10 samples.

Results

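Chromosome 2 of the rat was described in hippocampal DNA of rats bred for high or low running capacity. The members were all tiles of 1000 bp that the deposited methylation table places on chromosome 2, which were 11485 of 176032 tiles (6.52%), and their coordinates, in mRatBN7.2 (rn7), ran from 60001 to 248982000. The compared groups were 4 high-capacity runners (HCR, rats 1, 11, 15 and 19) and 6 low-capacity runners (LCR, rats 12, 18, 22, 24, 26 and 30). All were untrained females of generation 44, aged 23 to 24 months, that received no treatment. Both lines were bred from the same genetically mixed founder stock, so line and breeding history cannot be told apart, and each rat was 1 replicate. Whole hippocampus was used, in which a changed share of cells of a type and a changed methylation level per cell cannot be told apart.

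In vertebrate DNA, methyl groups sit mostly on the cytosine of CG dinucleotides (CpGs). Most CpGs of the genome are highly methylated, whereas CpG islands, which are CpG-rich stretches often found at gene starts, are mostly unmethylated in healthy tissue. Reduced representation bisulfite sequencing (RRBS) cuts DNA at CCGG, the MspI site, and thus reads CpG-rich fragments and their surroundings, so the tiles cover the chromosome unevenly. The methylation level of a tile is the percentage of its CpG reads that were read as methylated, and a difference between lines is given in percentage points, as HCR minus LCR.

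Sequences of the tiles were not used here, because no genome of the build of the tiles was at hand. In the rows read of the study's annotation tables, of which 1 was used only in part, tiles of chromosome 2 were assigned to the promoters of Hspb3, Crabp2 and Slc22a15, and these promoters are shown because a tile could be tied to them by gene. The sequences are from RefSeq (GRCr8, another build, so that tile and promoter cannot be placed against each other), run from 250 bases before to 50 bases after the gene start, and have each CG in capitals.
Hspb3 (chr2:47029116-47029415, minus strand): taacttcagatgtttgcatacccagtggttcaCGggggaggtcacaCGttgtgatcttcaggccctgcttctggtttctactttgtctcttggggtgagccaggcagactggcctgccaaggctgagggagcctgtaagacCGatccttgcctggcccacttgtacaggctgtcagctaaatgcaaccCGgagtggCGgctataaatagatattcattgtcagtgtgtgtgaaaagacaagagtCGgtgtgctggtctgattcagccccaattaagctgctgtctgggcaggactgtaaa
Crabp2 (chr2:175714612-175714911, plus strand): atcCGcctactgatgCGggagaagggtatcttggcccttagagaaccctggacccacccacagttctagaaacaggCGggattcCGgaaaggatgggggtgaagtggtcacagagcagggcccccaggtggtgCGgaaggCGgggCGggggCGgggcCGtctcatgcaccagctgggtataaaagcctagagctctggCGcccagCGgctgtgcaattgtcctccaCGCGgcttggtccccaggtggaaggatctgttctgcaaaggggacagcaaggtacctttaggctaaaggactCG
Slc22a15 (chr2:192047311-192047610, minus strand): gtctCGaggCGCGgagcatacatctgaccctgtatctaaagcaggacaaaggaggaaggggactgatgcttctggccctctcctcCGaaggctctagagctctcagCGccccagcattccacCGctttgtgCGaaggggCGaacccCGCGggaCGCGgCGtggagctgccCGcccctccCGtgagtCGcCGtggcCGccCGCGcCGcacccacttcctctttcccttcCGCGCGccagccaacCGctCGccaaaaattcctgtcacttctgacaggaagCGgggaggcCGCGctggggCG

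Hspb3, a small heat shock protein gene, had 6 CpGs in this window, Crabp2, which encodes a retinoic acid binding protein, had 14, and Slc22a15, of a family of organic ion transporters, had 30. The median over 33469 promoters of 300 bases was 7. The letters CCGG (the same on both strands) occurred 1 time in the window of Hspb3, 1 time in that of Crabp2 and 0 times in that of Slc22a15, and 51.4% of the promoters held them. The promoter tile of Hspb3 (chr2:45295001-45296000) had methylation levels of 27.8, 60.04, 53.03 and 59.9% in the HCR rats 1, 11, 15 and 19, against 20.7 to 36.9% (median 29.4%) in the LCR rats. HCR rat 1 lay inside the LCR range and the other HCR rats above it. That of Crabp2 (chr2:173417001-173418000) had 24.3, 21.99, 24.7 and 23.6% in the HCR rats, against 14.98 to 22.4% (median 17.9%) in the LCR rats. That of Slc22a15 (chr2:189359001-189360000) had 27.1, 32.3, 21.1 and 11.7% in the HCR rats, against 53.5, 23.4, 44.5 and 58.2% in the LCR rats 18, 22, 26 and 30. The lines overlapped in all 3 promoter tiles.

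The level over the whole chromosome overlapped between the lines. Of the 11485 tiles, 8031 had a value in every rat (complete tiles) and 3454 had not. The mean level over the complete tiles was 48.3, 51.0, 47.9 and 52.7% in the HCR rats 1, 11, 15 and 19, against 46.8, 50.5, 47.4, 51.4, 47.5 and 45.6% in the LCR rats 12, 18, 22, 24, 26 and 30. The means of the lines were 49.98 ± 2.28% in HCR (SD, n = 4) and 48.2 ± 2.25% in LCR (SD, n = 6), a difference of 1.75 points, less than the spread between rats of either line. Over the complete tiles of chromosome 2, the median of the signed tile differences, in which rises and falls offset each other, was 0.60 points. Of these tiles, 64.5% were higher in HCR. In the complete tiles of the other chromosomes the median was 0.79 points and 65.7% were higher in HCR.

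Tiles without a value numbered 712, 361, 699 and 151 in the HCR rats 1, 11, 15 and 19, against 1336, 785, 1011, 428, 352 and 901 in the LCR rats 12, 18, 22, 24, 26 and 30. No tile or window was chosen by the line difference of this number. Apart from the tests of single tiles, this number, also set against that of other sequences, was the only measure per rat that was tested. It averaged 481 ± 273 in HCR (SD, n = 4) and 802 ± 369 in LCR (SD, n = 6). The authors' filter asked for 3 rats per line, although the lines differ in size. A tile could thus lack a smaller part of the 4 HCR values than of the 6 LCR values, which favours fewer missing tiles in HCR. Relabelling the rats (two-sided exact permutation test over 210 splits, p = 0.171) ignores this filter, so it cannot decide whether the lines differ in this number. Set against the share of tiles without a value on all other sequences, the HCR rats lay between 1.05 and 1.16 and the LCR rats between 1.02 and 1.16. The difference of this ratio was 0.0247, of opposite sign to that of the number (two-sided exact permutation p = 0.533). The depth behind a tile is unknown.

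**Figure D1:**
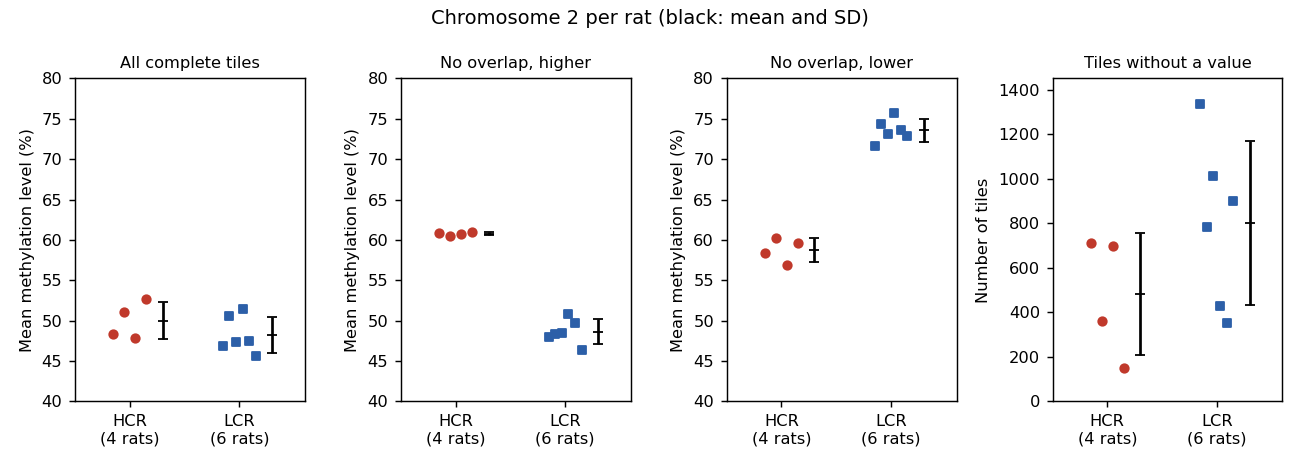
Chromosome 2 in each rat (HCR, circles, left; LCR, squares, right), with the mean and SD of the line in black. The first 3 panels show the mean methylation level (%, axis from 40 to 80) over the 8031 complete tiles and over the 126 and 47 tiles without overlap chosen by their line difference, and the last panel shows the number of tiles without a value; the lines overlap in the first and last panels.

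The comparison of the lines asked where on the chromosome inborn running capacity went with another methylation level in the aged hippocampus. Tiles were selected on these same values: a complete tile was without overlap when every HCR rat lay above every LCR rat, or every HCR rat below. By this choice, 126 tiles were higher in HCR and 47 were lower, which made 173 of 8031 complete tiles (2.15%; higher 1.57%, lower 0.585%). Over all chromosomes 1.89% of complete tiles were without overlap, 1.53% higher and 0.367% lower. Among the tiles without overlap, 72.8% were higher in HCR on chromosome 2 and 80.6% over all chromosomes. Chromosome 2 had the share of rank 6 (from the highest) of 21 chromosomes, and the shares of the others ran from 1.45 to 2.34%. The share on chromosome 2 was near that of the genome.

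The direction of the split depended on the scale. After the rat means were set equal, 48 tiles were higher in HCR and 67 were lower, and after quantile normalization 40 were higher and 97 were lower. The larger number of tiles that were higher in HCR therefore did not hold when the levels of the rats were aligned.

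Most differences were modest. The median difference was 10.8 points in the 126 higher tiles and -12.5 points in the 47 lower tiles, and the largest were 34.1 and -64.3 points. Differences of at least 20 points were found in 19 higher and 9 lower tiles, and 27 higher and 11 lower tiles differed by less than 5 points. The gap between the nearest rats of the lines was at least 5 points in 28 of the 173 tiles and at most 0.5 points in 46. In 416 complete tiles the lines overlapped by at most 0.5 points. This number includes any tile in which all rats lay within 0.5 points, so it does not show how many tiles lay near the rule. Just inside it, chr2:152751001-152752000 had 1.29 to 1.84% in HCR and 1.03 to 1.29% in LCR. Just outside, chr2:223682001-223683000 had 85.7 to 100% in HCR and 100% in every LCR rat. Over the 126 higher tiles the rat means were 60.5 to 61.0% in HCR, against 46.4 to 50.8% in LCR. Over the 47 lower tiles they were 56.9 to 60.2% in HCR, against 71.7 to 75.8% in LCR, as the choice of tiles fixes.

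**Figure D2:**
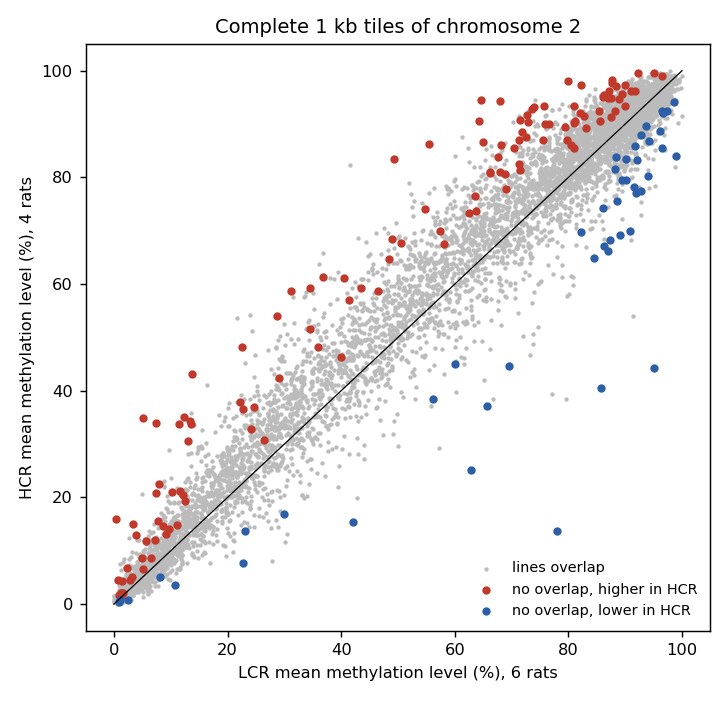
HCR mean (vertical, 4 rats) against LCR mean (horizontal, 6 rats) of the methylation level (%) of each complete tile of chromosome 2, with the diagonal of equal means. Red points are the 126 tiles without overlap that were higher in HCR, blue points the 47 that were lower, grey points the tiles in which the lines overlapped; the blue point farthest from the diagonal lies at 13.7% in HCR and 78.1% in LCR.

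Tiles of intermediate level made up the largest share. Of the 173 tiles, 69 had a mean of 20 to 80% (54 higher, 15 lower), which was 39.9% of them, against 35.5% of all complete tiles. Tiles at 80 to 95% gave 60 (37 higher, 23 lower), or 34.7% against 26.6%. Nearly unmethylated tiles, at 0 to 5%, gave 14 (11 higher, 3 lower), or 8.09% against 21.5%. The study's tables named a CpG context for 65 of the 173 tiles, of which 47 were in open sea, 8 in CpG islands, 5 in the shores beside islands and 5 in the shelves farther out. These tables hold tiles that the study called DMRs on the same rats. Tiles outside them had no context here, so no share over all tiles can be set beside these counts and nothing was read from them.

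Most windows of 1 Mb held no tile without overlap. Of 249 windows with a complete tile, 154 held none, 51 held 1, 29 held 2, and 15 held at least 3 and are described here. Of these 15 windows, 7 held 3 tiles, 4 held 4, 1 held 5, 1 held 6 and 2 held 8. Together they held 64 tiles without overlap, 45 higher and 19 lower in HCR, among 956 complete tiles. Both directions occurred in 12 windows and only higher tiles in 3, and no window held only lower tiles. Which directions a window held by this rule depended on the scale. With rat means set equal, 6 of the 15 windows held both directions, 3 only higher, 4 only lower and 2 no tile without overlap (18 higher and 19 lower tiles). With quantile normalization the numbers were 4, 2, 7 and 2 (10 higher and 27 lower tiles). The number of tiles read went with the choice of windows, since 14 of the 15 had more complete tiles than the median window of the chromosome (25), with a median of 50; its part in the result was not tested.

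**Figure D3:**
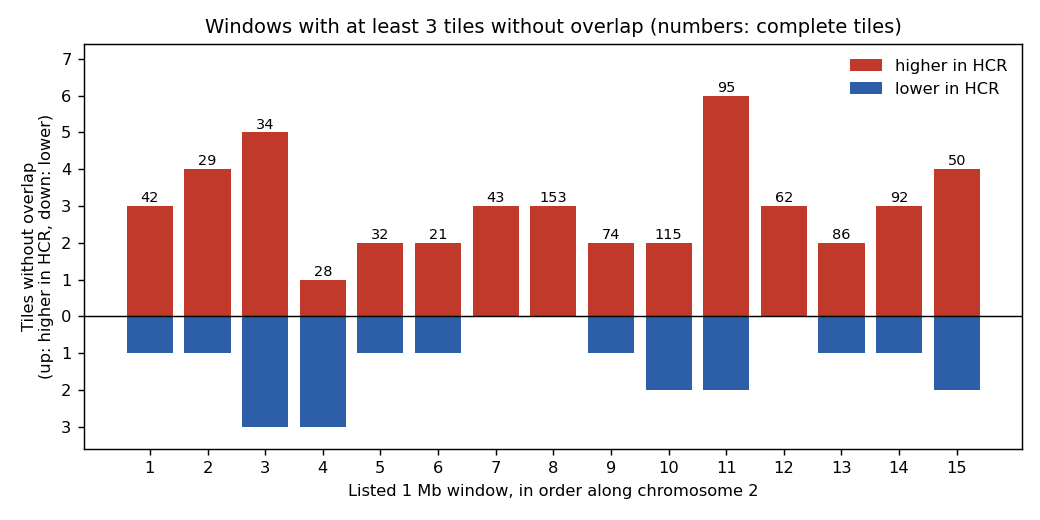
Number of tiles without overlap in each of the 15 windows of 1 Mb chosen by that number, numbered in order along chromosome 2. Red bars above 0 count tiles higher in HCR, blue bars below 0 count tiles lower in HCR, and the printed numbers are the complete tiles of the window; windows 3 and 11 hold 8 tiles each, and windows 7, 8 and 12 hold only higher tiles.

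The first 5 Mb of the chromosome held 4 of the 15 windows. In this stretch, which was singled out after its values were seen, 23 of 157 complete tiles were without overlap (14.6%; 13 higher, 10 lower), against 150 of 7874 complete tiles (1.91%; 113 higher, 37 lower) on the rest of the chromosome. Leaving out each rat in turn gave 15.1 to 19.1% in the stretch and 2.49 to 4.14% on the rest. With rat means set equal the shares were 10.8% and 1.24% (6 higher and 11 lower in the stretch), and with quantile normalization 8.92% and 1.56% (2 higher and 12 lower). The first 5 Mb kept the higher share under each of these settings, but they reuse the values that singled it out and so do not test it. The larger number of higher tiles among those without overlap in the stretch did not hold when the levels of the rats were aligned. No gene was assigned to any of the 23 tiles in the annotation used here.

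In the first window (chr2:1-1000000), 3 of 42 complete tiles were higher and 1 was lower in HCR. At a CpG island, chr2:62001-63000, the HCR rats had 21.1, 18.1, 21.98 and 20.5%, against 10.9 to 13.8% (median 12.1%) in the LCR rats. Its direct neighbours, at 61001 and 63001, differed by 0.16 and -0.87 points, so the difference did not reach past 1 tile. The other tiles without overlap of the window differed by -4.66 (151001), 13.2 (266001) and 4.96 points (680001), with gaps of at most 0.623 points between the nearest rats.

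The window chr2:2000001-3000000 held the longest run. In 4 tiles in a row, chr2:2732001-2736000, of which the first 3 were annotated as a CpG island, every HCR rat lay above every LCR rat. With rat means set equal this held in 1 of the 4 tiles, and with quantile normalization in 0, although the mean stayed higher in HCR in all 4. In the first tile of the run the HCR rats 1, 11, 15 and 19 had 68.2, 29.98, 40.2 and 33.8%, against 7.97 to 27.9% (median 12.2%) in the LCR rats. In the second tile the HCR rats had 47.6, 22.7, 44.1 and 21.7%, against 4.37 to 11.9% (median 6.12%) in the LCR rats. Levels were lower farther along the run: the third tile had 14.9 ± 8.91% in HCR and 3.33 ± 1.92% in LCR. The fourth had 6.76 ± 2.10% in HCR and 2.33 ± 0.571% in LCR (SD, n = 4 and n = 6). HCR rat 1 was the highest of its line in the first 3 tiles, and LCR rat 26 the highest of its line in the first and the third. The correlation of the rats' deviations from their line means was 0.75 between tiles 1 and 2 of the run, 0.77 between tiles 2 and 3 and 0.19 between tiles 3 and 4 (4 HCR and 6 LCR rats, tiles of the same libraries). The remaining tile without overlap of this window, chr2:2090001-2091000, was lower, with 83.5 ± 1.74% in HCR and 90.2 ± 2.34% in LCR.

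The next window, chr2:3000001-4000000, had 8 of 34 complete tiles without overlap, 5 higher and 3 lower, and the directions were interspersed. At chr2:3511001-3512000, in open sea, the HCR rats had 36.4, 16.4, 49.4 and 37.3%, against 2.03 to 13.5% (median 2.98%) in the LCR rats. Only 44 kb farther, chr2:3555001-3556000 had 42.9, 35.4, 31.9 and 38.6% in the HCR rats, against 59.0 to 73.2% (median 65.1%) in the LCR rats. These opposite differences, of 29.7 and -28.5 points, were among the 10 largest of either direction. The tile chr2:3316001-3317000, on a CpG shore, had 27.8, 17.7, 19.6 and 24.9% in the HCR rats, against 6.20 to 12.7% (median 6.82%) in the LCR rats. Also higher in HCR was chr2:3746001-3747000, with 86.2, 89.4, 93.5 and 93.3% in the HCR rats, against 43.5 to 74.8% (median 67.9%) in the LCR rats. Of the remaining tiles, 3318001 and 3425001 were higher by 13.5 and 6.004 points and 3045001 and 3635001 differed by -26.7 and -5.86 points.

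The window chr2:4000001-5000000 held the largest difference of the chromosome among complete tiles. At chr2:4051001-4052000 the HCR rats had 14.8, 13.6, 10.99 and 15.4%, against 67.1 to 87.6% (median 77.2%) in the LCR rats, a difference of -64.3 points with a gap of 51.7 points between the nearest rats. The 6 other tiles within 100 kb with at least 3 values per line differed by no more than 3.68 points in size, in both directions. At chr2:4904001-4905000 the HCR rats had 36.6, 33.1, 46.3 and 46.4%, against 69.6 to 93.6% (median 86.7%) in the LCR rats. At chr2:4807001-4808000 the HCR rats had 69.9, 60.8, 60.4 and 68.3%, against 77.1 to 87.9% (median 86.2%) in the LCR rats. This was the only window of the 15 with more lower than higher tiles, 3 against 1, and its higher tile (4363001) differed by 9.14 points. Between the listed windows, chr2:1364001-1365000 had 17.2, 40.1, 18.7 and 24.9% in the HCR rats, against 50.8 to 82.8% (median 61.1%) in the LCR rats.

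**Figure D4:**
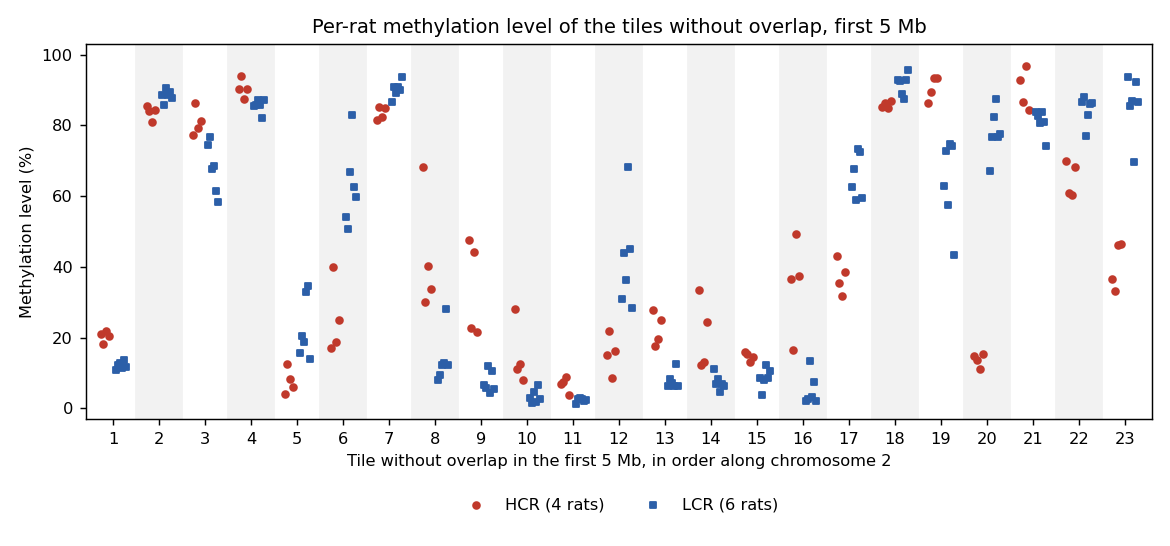
Methylation level (%) of each HCR rat (red circles, left) and each LCR rat (blue squares, right) in the 23 tiles without overlap of the first 5 Mb, in order along the chromosome, tiles chosen by these values. Higher and lower tiles are interspersed, tiles 8 to 11 are the run at a CpG island, and tile 20 is the one with 10.99 to 15.4% in HCR and 67.1 to 87.6% in LCR.

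In the middle of the chromosome 3 windows were listed. In chr2:57000001-58000000 the tiles without overlap differed by -7.15 (57010001), 0.31 (57565001) and 10.8 points (57854001). In chr2:101000001-102000000 an upstream tile of Mtfr1, a regulator of mitochondrial fission (chr2:101691001-101692000), had 16.5, 20.2, 26.8 and 21.3% in the HCR rats, against 8.39 to 14.7% (median 11.8%) in the LCR rats. The other tiles of that window differed by 8.89 (101218001) and -13.8 points (101951001). In chr2:115000001-116000000 all 3 tiles were higher. Its CpG island tile, chr2:115174001-115175000, had 10.8, 18.7, 2.52 and 31.9% in the HCR rats, against 0 to 1.07% (median 0.478%) in the LCR rats. This tile was almost unmethylated in every LCR rat and spread widely among the HCR rats. The other 2 tiles differed by 7.31 (115430001) and 9.33 points (115490001).

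Farther along lay 6 of the listed windows, all with more complete tiles than the median window. In chr2:174000001-175000000, the window with the most complete tiles of the chromosome (153), 1.96% of these were without overlap, against 2.15% over the chromosome. These 3 tiles were all higher in HCR. One was in an exon of Pklr, the pyruvate kinase of liver and red cells (chr2:174550001-174551000), with 69.2, 66.1, 68.8 and 66.5% in the HCR rats, against 36.9 to 61.3% (median 53.0%) in the LCR rats. The HCR rats lay close together there (SD 1.59), whereas the LCR rats were spread out (SD 9.74). In chr2:175000001-176000000 the tiles differed by 11.2 (175386001), 2.12 (175948001) and -1.71 points (175992001). In chr2:188000001-189000000 an intronic tile of Igsf3, which encodes a membrane protein of the immunoglobulin superfamily (chr2:188886001-188887000), had 55.8, 63.2, 48.5 and 67.5% in the HCR rats, against 18.2 to 42.0% (median 29.6%) in the LCR rats. In chr2:195000001-196000000 the largest difference was -24.9 points (195840001), where the HCR rats had 48.7, 44.3, 21.1 and 64.4%, against 64.7 to 75.7% (median 68.7%) in the LCR rats, with only 0.337 points between the nearest rats.

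The neighbouring windows chr2:183000001-184000000 and chr2:184000001-185000000 held tiles without overlap in 4 of 115 and 8 of 95 complete tiles. In the first, a higher pair and a lower pair lay within 179 kb, and differed by 0.66 (183802001), 8.89 (183935001), -3 (183960001) and -13.0 points (183980001). The second held 6 higher and 2 lower tiles. Among them was a run of 3 tiles, chr2:184674001-184677000, with 92.0 ± 2.43, 13.03 ± 4.55 and 97.6 ± 0.693% in HCR, against 82.0 ± 2.19, 3.96 ± 3.31 and 87.6 ± 3.13% in LCR (SD, n = 4 and n = 6). The 3 differences were 10.04, 9.07 and 9.98 points, although the level of the middle tile was far below that of its neighbours. With rat means set equal and with quantile normalization, only the last tile of this run stayed without overlap. An exon tile of Rnf115, a ubiquitin ligase gene (chr2:184327001-184328000), was lower, with 66.5, 64.7, 65.6 and 67.7% in the HCR rats, against 73.8 to 100% (median 85.6%) in the LCR rats. At chr2:184002001-184003000 the HCR rats had 36.2, 38.0, 26.1 and 37.0%, against 6.23 to 25.1% (median 12.2%) in the LCR rats. The remaining tiles differed by 12.96 (184019001), 7.44 (184625001) and -11.8 points (184628001).

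Near the far end of the chromosome, chr2:219000001-220000000 held 3 higher tiles and 1 lower tile, with differences of 7.83 (219176001), 15.7 (219396001), -17.8 (219727001) and 16.7 points (219821001). The window chr2:221000001-222000000 held 4 higher and 2 lower tiles of 50. At chr2:221063001-221064000 the HCR rats had 99.4, 83.5, 97.7 and 97.3%, against 59.7 to 66.5% (median 65.5%) in the LCR rats. At chr2:221047001-221048000 the HCR rats had 94.9, 73.9, 90.9 and 85.5%, against 46.8 to 66.7% (median 54.1%) in the LCR rats. HCR rat 11 was the lowest of its line in both. An intronic tile of Tbck, a kinase-like gene linked to mTOR signaling (chr2:221286001-221287000), was lower, with 88.9, 81.2, 83.8 and 81.9% in the HCR rats, against 95.4 to 100% (median 100%) in the LCR rats. The other tiles differed by 21.8 (221406001), 20.6 (221614001) and -4.88 points (221022001). A tile with a value in only 3 HCR rats, chr2:221414001-221415000, had 100% in each of the HCR rats 1, 15 and 19, against 50 to 56.8% (median 52.1%) in the 6 LCR rats.

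Across all tiles with at least 3 values per line, limma called 18 differentially methylated regions (DMRs, adjusted p under 0.1 and at least 5 points) among 11483 tested tiles of chromosome 2 (0.157%), 10 higher and 8 lower in HCR. Over all 176004 tested tiles 0.0858% were called, 0.058% higher and 0.0278% lower. Chromosome 2 was picked with this count in view, and the windows use the same contrast, so nothing was read from it. All 18 were without overlap among the rats with a value, and 11 were complete tiles. With rat means set equal 5 were higher and 7 lower, and with quantile normalization 4 were higher and 11 lower. The count was unstable: without HCR rat 1 limma called 4 (0 higher), without HCR rat 19, LCR rat 24 or LCR rat 30 it called 7, without LCR rat 22 or 26 it called 9, and without LCR rat 12 or 18 it called 10.

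Called in every one of the 10 fits that left out a rat were 3 DMRs, all lower in HCR. The tile with the smallest adjusted p, chr2:95380001-95381000 in open sea, had 44.6, 49.4, 42.6 and 40.8% in the HCR rats, against 89.1 to 100% (median 94.7%) in the LCR rats (-50.7 ± 3.47 points, SE, limma adjusted p = 0.00368). Every HCR rat was near the middle of the scale and every LCR rat near its top. At chr2:16634001-16635000, also in open sea, the HCR rats had 31.7, 37.2, 35.2 and 33.9%, against 93.8, 93.3, 93.3 and 96.8% in the LCR rats 18, 22, 24 and 26 (-59.8 ± 4.55 points, SE, limma adjusted p = 0.0174). LCR rats 12 and 30 had no value there, so the fits without them left the values of this tile unchanged. The third was chr2:4051001-4052000 (-64.3 ± 5.72 points, SE, limma adjusted p = 0.0174). The higher DMRs at 221414001 and 82867001, which had missing values, were called in each of the 7 and 4 fits that could test them. At 82867001 all 4 of these fits left out a rat without a value there, so its values never changed. At 221414001 no HCR rat with a value could be left out, and the fit without HCR rat 11 left its values unchanged.

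Of the higher DMRs, the largest were tiles with missing values. At chr2:221414001-221415000 the limma difference was 47.5 ± 3.87 points (SE, adjusted p = 0.0174), and at chr2:220948001-220949000 the HCR rats 1, 15 and 19 had 94.1, 84.9 and 92.4%, against 50, 43.7, 50, 34.9 and 42.6% in the LCR rats 18, 22, 24, 26 and 30 (46.2 ± 6.08 points, SE, limma adjusted p = 0.0704). The call of the tile at 220948001 held in 2 of 7 fits that left out a rat and could test it. These were the fits without HCR rat 11 and LCR rat 12, which had no value there. The call was lost without each of the LCR rats that had a value. At chr2:82867001-82868000 the HCR rats 1, 11 and 19 had 100, 96.3 and 95.1%, against 54.1, 53.9 and 55.9% in the LCR rats 18, 24 and 30 (42.5 ± 3.99 points, SE, limma adjusted p = 0.0542). In these 3 tiles the HCR rats with a value had at least 84.9% and the LCR rats with a value at most 56.8%. Among complete tiles the largest higher DMR was chr2:98727001-98728000, with 95.5, 80.6, 81.5 and 76.0% in the HCR rats, against 41.2 to 58.1% (median 49.5%) in the LCR rats (limma adjusted p = 0.0984), and it was called in 0 of the 10 fits that left out a rat.

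Apart from these tiles and an intronic tile of Nr2f1, 5 DMRs lay outside the listed windows. At chr2:28619001-28620000 the HCR rats had 94.9, 85.0, 90.2 and 93.0%, against 67.6 to 77.9% (median 70.9%) in the LCR rats. At chr2:44838001-44839000 the HCR rats had 97.8, 98.7, 100 and 95.8%, against 75 to 85.9% (median 79.4%) in the LCR rats. Lower in HCR were chr2:224383001-224384000 (68.4, 72.6, 68.0 and 68.1% in the HCR rats, against 86.6 to 95.5% in the LCR rats), chr2:103207001-103208000 (-17.0 points, 4 rats of each line) and chr2:121875001-121876000 (-14.8 points, 3 HCR and 5 LCR rats). None of these 5 tiles was called in more than 5 of the fits that left out a rat.

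Tiles near a DMR seldom shared its difference. Of the 36 nearest tiles on either side of the 18 DMRs, at distances of 1 to 229 kb, 35 overlapped between the lines, 32 differed by less than 10 points, and the largest difference was 17.2 points. Among all complete tiles without overlap, 66 had a complete direct neighbour and 9 of these had a neighbour that was also without overlap, in 6 pairs, all of the same direction. Pairs within the runs that start at 2732001 and 184674001 share tiles, so the 6 pairs are not separate places. Of the 63 overlapping direct neighbours, 48 had a difference of the same sign. Beside this, 64.5% of all complete tiles of chromosome 2 and 72.8% of those without overlap were higher in HCR, so nothing was read from it. The correlation of rats within lines between direct neighbours had a median of 0.15 over all 1686 complete pairs and 0.40 over the 6 pairs without overlap. For tiles of the same listed window it was 0.08 in 66 pairs of the same direction and 0.05 in 60 pairs of opposite direction.

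**Figure D5:**
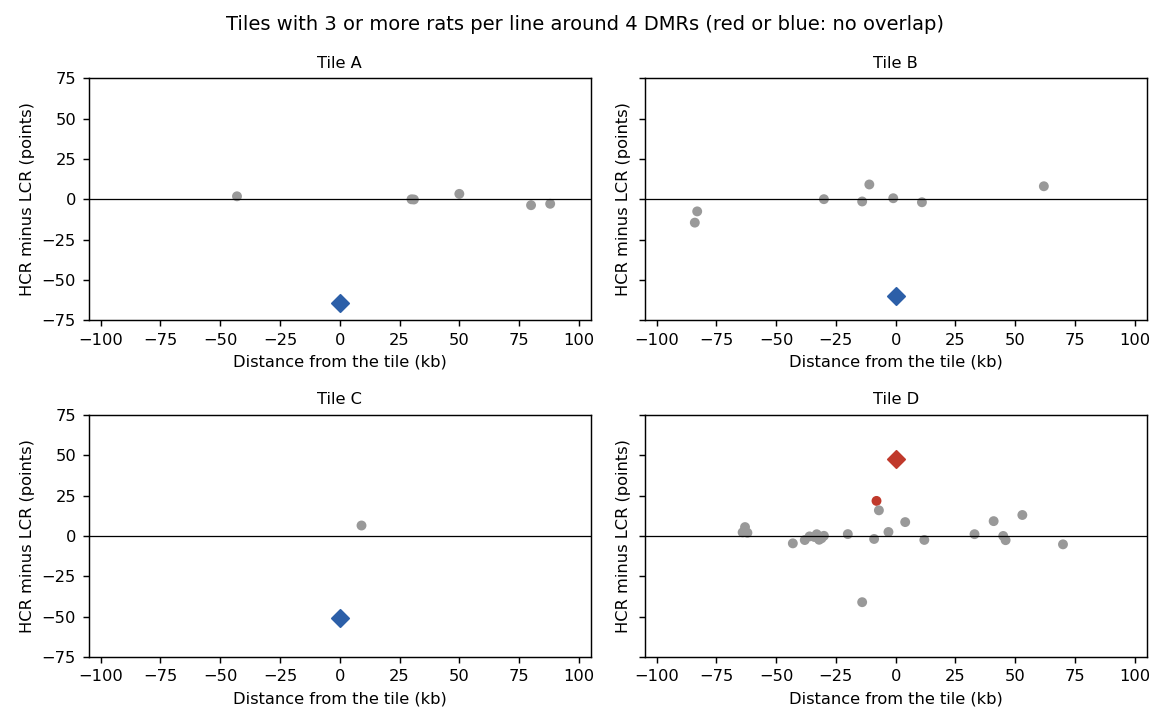
HCR minus LCR (percentage points) of tiles with at least 3 values per line against the distance (kb) from 4 DMRs (diamonds), chosen by their size: A and B are the tiles of -64.3 and -59.8 points, C that of -50.7 points and D that of 47.5 points. Circles are other tiles within 100 kb, red or blue where the lines did not overlap and grey where they did; around A the other tiles lie within 3.68 points of 0, and around D 1 of 25 others was without overlap.

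Genes were assigned to 57 tiles of chromosome 2 (54 genes) by the rows read of the study's tables, which list tiles that the study itself called DMRs on these rats, so that their counts and directions are not independent evidence. Of the 57, 47 were higher and 10 lower in HCR, and 22 were without overlap (18 higher, 4 lower; 13 in exons, 8 in introns, 1 upstream and 0 at promoters). Limma on the percent values called 2 of the 57, in introns of Nr2f1 and Tbck. Nr2f1 encodes a nuclear receptor that patterns the developing cortex and hippocampus. Its tile (chr2:8043001-8044000) had 32.6, 31.6 and 19.9% in the HCR rats 1, 11 and 15, against 0 to 8.82% (median 5.35%) in the 6 LCR rats (23.1 ± 2.99 points, SE, limma adjusted p = 0.0542). HCR rat 19 had no value there, and the call held in 2 of 7 fits that left out a rat and could test it. These were the fit without HCR rat 19, which removed no value, and the fit without LCR rat 12. The tile of Tbck had a limma adjusted p of 0.0418 and was called in 4 of 10 fits that left out a rat.

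The 7 lists of genes by function were read against these 57 tiles. A gene without such a tile may still have been measured, since only tiles called by the study carried a gene here. The counts below stand beside 47 higher tiles and 22 without overlap among the 57, and nothing was read from them. Of all complete tiles of chromosome 2, 2.15% were without overlap. Of 11 transcription factor genes of the list on chromosome 2, 5 had a tile, all higher in HCR, 1 a DMR (Nr2f1) and 3 without overlap. Of these, the exon tile of Mecom, a zinc finger factor (chr2:113430001-113431000), had 93.1, 89.7, 80.2 and 84.9% in the HCR rats, against 60.8 to 79.8% (median 70.7%) in the LCR rats. The exon tile of Nfkb1, a subunit of NF-kB (chr2:224036001-224037000), had 95.05, 98.7, 100 and 98.9% in the HCR rats, against 72.5 to 94.7% (median 90.4%) in the LCR rats. That of Zfp697 (chr2:186000001-186001000), in a CpG island, differed by 6.68 points.

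Of 12 metabolic and mitochondrial genes 6 had a tile, all higher in HCR, 5 of them without overlap and 0 DMRs. The largest difference was in an exon of Abca4, a retinoid transporter of photoreceptors (chr2:210279001-210280000), with 88.3, 93.3, 83.4 and 96.8% in the HCR rats, against 64.5 to 79.8% (median 73.7%) in the LCR rats. An intronic tile of Dpyd, which breaks down pyrimidines (206974001), differed by 7.17 points. Of 14 growth factor and receptor genes 4 had a tile, all higher. An exon tile of Pear1, a receptor of platelets and endothelium (chr2:173215001-173216000), had 39.0, 70.7, 47.8 and 35.4% in the HCR rats, against 3.35 to 33.8% (median 23.6%) in the LCR rats. The lines overlapped in the tile of Fstl5 (160855001, 20.5 points).

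Of 13 glutamate and synapse genes 4 had a tile, all higher, and only that of Dclk2, a microtubule-binding kinase of neurons (chr2:172235001-172236000), was without overlap, with 40.3, 36.2, 39.6 and 30.6% in the HCR rats, against 13.2 to 29.1% (median 25.4%) in the LCR rats. The lines overlapped in the tiles of Ppp3ca, the catalytic subunit of calcineurin (225412001, 15.7 points), Trio, an exchange factor for small GTPases (78536001, 13.1 points), and Pde4d, a cAMP phosphodiesterase (41512001, 6.11 points). Of 19 adhesion and matrix genes 6 had a tile, 5 higher and 1 lower. That of Egflam, a matrix protein of photoreceptor synapses (56312001), differed by 17.1 points without overlap. Of 12 channel and pump genes 2 had a tile, and the lines overlapped in both, among them that of Clca2 (234003001, 15 points). Of 12 kinase and PI3K pathway genes 3 had 4 tiles, 1 higher and 3 lower. Besides Tbck, an intronic tile of Mctp1, a calcium-binding membrane protein (chr2:6372001-6373000), had 79.6, 78.6, 84.1 and 76.1% in the HCR rats, against 87.1 to 91.0% (median 89.7%) in the LCR rats. An intronic tile of Syde2, which regulates small GTPases (234903001), was higher in HCR by 22.9 points, and the other tile of Syde2 overlapped. Apart from the tiles of Nr2f1 and Tbck, none of these gene tiles was called by limma, whereas all of them stand in the study's own tables of DMRs, which rest on a test of read counts.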

How the data were processed

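DNA from the hippocampus of 4 HCR and 6 LCR rats was measured by RRBS, with libraries pooled for bisulfite conversion. The authors report no separate batch of preparation or sequencing. Which rats shared a pool is not given, so pools cannot be set against lines. The deposited values are percent methylation per 1000 bp tile, which the authors made by trimming with Trim Galore 0.6.10, aligning with Bismark (on Bowtie2) to the build mRatBN7.2 (rn7), dropping CpGs under 5 reads or of extreme coverage and summing CpGs in tiles with methylKit, with at least 3 CpGs per tile and 3 rats per line. Reads were checked with FastQC and MultiQC. Other rats that failed quality control were not analysed here. Empty cells count as no value. No read counts were used here, so the depth per tile is unknown, no counting interval is given and the test of the study on counts was not run. A C-to-T variant reads as an unmethylated cytosine in bisulfite data, and variants were not analysed here.

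HCR and LCR rats were compared in 176004 tiles by limma 3.58.1 in R 4.3.3 (mean-variance trend, no covariate, Benjamini-Hochberg adjustment over all tiles). The code was run on simulated data with independent normal noise and differences added only to tiles of intermediate level. Differences in tiles near either end of the scale were not covered by it. Tiles with the same value in every rat were dropped. DMRs were tiles that differed by at least 5 points with an adjusted p under 0.1. Each limma p-value sets the difference of the lines against the spread between rats of a line, which limma moderates by the trend over all tiles. A complete tile was without overlap when all HCR rats lay on one side of all LCR rats, and windows of 1000000 bp with at least 3 such tiles were listed. Tiles of a window share rats and libraries and are not replicates. Figures were drawn with Matplotlib 3.10.9, and tables were made in Python 3.11.15 with pandas 2.3.3, SciPy 1.17.1 and NumPy 2.4.6.

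The members, windows and gene lists were chosen with earlier results of these data known. Tiles were named when they were DMRs, the largest or (in the 8 windows with the most) any tile without overlap of a listed window, among the 10 largest differences of either direction, or among the 4 smallest p-values of a gene list. Genes, features and CpG context came from the study's tables, which held 156 tiles of chromosome 2, and 1 of these tables was used only in its first rows. Alternatives were another scale, filter, normalization, minimum difference or gap, window limits, and leaving out each rat.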

Additional observations from a re-analysis of the deposited data

Results flagged for a closer look

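In the 86 tiles named by rule and the 2 measures per rat, 165 groups of 4 to 6 rats were looked at for a rat that stood apart from its own line (Dixon's ratio above its 95% critical value), and 20 flags were raised, where chance flags about 1 in 20 groups. In no tile was the cause tested.

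In 6 groups the HCR rat named here stood apart. HCR rat 11 had 83.5% at 221063001, where the nearest other HCR rat had 97.3%, and it had 69.6% at 221614001 (nearest 59.5%) and 72.6% at 224383001 (nearest 68.4%). HCR rat 15 had 99.1% at 41928001 (nearest 93.1%) and 26.1% at 184002001 (nearest 36.2%). HCR rat 19 had 96.6% at 41512001 in Pde4d, where the other HCR rats had 100%.

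Among the LCR rats, rat 26 had 82.0% at 680001 (nearest 85.5%), 27.9% at 2732001, the first tile of the run at a CpG island (nearest 12.9%), 12.7% at 3316001 (nearest 8.20%), 96.8% at 16634001 (nearest 93.8%) and 100% at 41512001 (nearest 92.2%). LCR rat 30 had 74.1% at 4363001 (nearest 80.6%) and 0% at 41928001, where the nearest LCR rat had 77.0% and the other rats of both lines had more. LCR rat 24 had 69.6% at 4904001 (nearest 85.5%). LCR rat 18 had 99.3% at 121875001 (other LCR rats with a value 100%), 72.5% at 224036001 in Nfkb1 (nearest 86.5%), 95.5% at 224383001 (nearest 89.1%) and 85.3% at 228261001 (nearest 90.7%). LCR rat 12 had 76.7% at 184628001 (nearest 85.4%) and 8.13% at 219396001 (nearest 21.4%). The mean level of chromosome 2 and the number of tiles without a value raised no flag.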

How the results depend on the processing

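No paired analysis was possible because the lines share no rat numbers. Limma called 6 DMRs of chromosome 2 on the logit scale, 31 without the mean-variance trend and 4 to 13 when each rat was left out, instead of 18. Tiles without overlap numbered 358 with at least 3 values per line, 28 with a gap of at least 5 points, 115 with rat means set equal and 226 to 362 when each rat was left out (fewer rats overlap less by construction), instead of 173. Listed windows numbered 51 with at least 3 values per line, 8 with a mean difference of at least 5 points, 3 with a gap of at least 5 points (a setting chosen after seeing the data), 9 with rat means set equal, 8 with quantile normalization, 8 with at least 4 tiles and 22 to 48 when each rat was left out, instead of 15. Of the 15 windows, 7 were also listed with rat means set equal and 5 with quantile normalization. The difference of the chromosome's level was 4.08 points for the median over tiles and 0.847 to 2.46 points when each rat was left out, instead of 1.75. The difference in tiles without a value was -411 to -212 when each rat was left out, and 0.0247, of opposite sign, as a ratio to all other sequences. For these the cause was not tested. Of 102 tiles recomputed (the 86 named by rule, all tiles without overlap of the listed windows and the promoter tiles), 3 changed sign, all with rat means set equal, namely 57565001 (-1.60 points), 183802001 (-1.25 points) and 195219001 (-0.44 points). Settings of the first 5 Mb, also chosen after seeing the data, gave 5.10% with a gap of at least 5 points. Tile depth, which limits each value, is unknown.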
